A study of Mus musculus with 6 samples.

Results

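The transferases of phase II metabolism were examined in mouse liver after hepatic ischemia and reperfusion (IR injury). They are the UDP-glucuronosyltransferases (Ugt), the cytosolic sulfotransferases (Sult) and the glutathione transferases (Gst and the microsomal Mgst). Members were taken by gene symbol (Ugt or Sult with a digit, the Gst classes alpha, mu, pi, theta, kappa, omega and zeta with a digit, and Mgst1, Mgst2 and Mgst3), without rows described as pseudogenes. This gave 62 of the 29543 genes in the deposited table, of which 20 were Ugt, 16 Sult and 26 Gst or Mgst genes. Levels are FPKM, fragments scaled to gene length and library size, so that different genes can be compared per length. Liver RNA was sequenced in 6 libraries, 3 from livers subjected to IR injury after a laparotomy and 3 from livers of a Sham group that had the laparotomy alone. Both groups thus share the opening of the abdomen. The labels name no strain, genotype, sex or age and no times of ischemia or reperfusion. The series title concerns Btg2, Fmo1, taurine synthesis and ferroptosis, and these transferases are part of the same liver transcriptome.

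Phase II enzymes attach a polar group to lipophilic compounds, so that bile and urine can carry them away. Ugt enzymes sit in the endoplasmic reticulum and mostly transfer glucuronic acid from UDP-glucuronic acid. Sult enzymes in the cytosol transfer sulfate from PAPS (3'-phosphoadenosine 5'-phosphosulfate), and Gst enzymes join glutathione to electrophiles such as epoxides and products of lipid peroxidation. The liver is the main site of all 3 reactions and handles bilirubin, bile acids, steroid and thyroid hormones and drugs in this way.

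Of the 62 members, 45 had a mean of at least 1 FPKM over the 6 libraries and were tested with limma on log2(FPKM + 1), with adjustment over all 10316 genes tested and a threshold of 0.05. In IR injury 35 of the 45 fell, 7 rose and 3 did not pass, against 53.8% of all tested genes that were lower, 24.3% that were higher and 78.1% called in either direction. The 7 that rose were Gstp2, Sult1e1, Ugt2b37, Ugt2b38, Sult1d1, Gstt3 and Gstp1, with log2 fold changes of 3.47 down to 0.48. By at least 1 on the log2 scale, 11 members fell and 4 rose, against 10.7% and 6.68% of all tested genes. The members' median log2 fold change was -0.60, and that of all tested genes was -0.23. Of the 35 that fell, 34 had a change below that median. In 42 of the 45 the libraries of one group all lay apart from those of the other, against 80.6% of all tested genes. Since 3 of the 45 (Sult1c2, Sult2a2 and Ugt1a6a) passed the filter through the Sham group alone, their difference is in part built into the filter.

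The scaling of the libraries mattered for the small changes. Under median-of-ratios scaling, which moved the median of all genes by 0.24 to 0.00, 27 members were lower and 9 higher, against 38.1% and 38.2% of all tested genes (76.3% in either direction). The 7 that rose were higher under that scaling as well. Mgst1, Ugt3a1 and Ugt3a2, which fell under the deposited scaling, had small positive values there (0.07, 0.01 and 0.02) and did not pass. Rebuilt depth was 54042831 to 68922517 reads in the IR injury libraries and 53622229 to 71752584 in the Sham libraries. Among the 25 members with a mean of at least 10 FPKM in both groups, the median coefficient of variation was 3.92% within IR injury and 4.52% within Sham. The labels call the libraries replicate samples without naming animals, and the spread behind each p-value may therefore be technical in part.

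**Figure D1:**
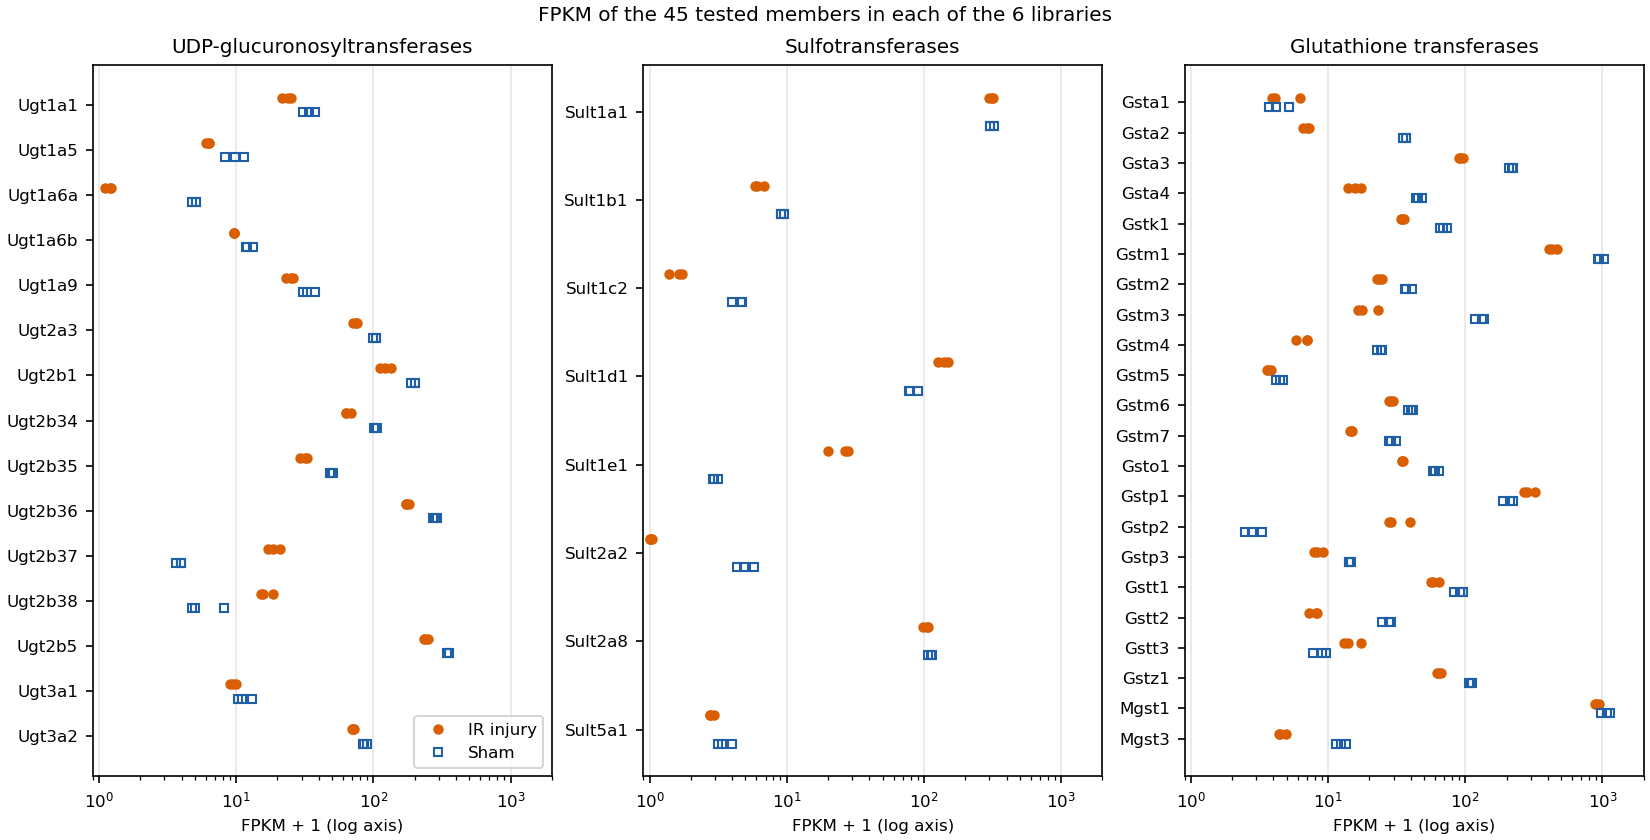
FPKM + 1 on a log axis for the 45 tested members in the 6 libraries, 1 point per library, with IR injury as filled circles above Sham as open squares. Gstp2, Sult1e1, Ugt2b37 and Ugt2b38 are the members with IR injury points far to the right of Sham, while most others lie to the left.

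The label of the tissue was checked on marker lists. Of 9 hepatocyte markers tested 2 rose and 5 fell, with a summed level of 58615 to 61195 FPKM in IR injury and 65261 to 68573 FPKM in Sham. Most of that sum was Alb (means of 38203 FPKM in IR injury and 46544 in Sham). The counts of this list are close to the 24.3% higher and 53.8% lower of all genes. Under median-of-ratios scaling 3 of the 9 were higher and 0 lower, so that each fall in this list rests on the deposited scaling. Neutrophil markers rose in all 7 tested of 10 (152 to 194 FPKM summed in IR injury, 11.2 to 12.6 in Sham), and none of the 10 was at 0 in all libraries. Of these, Retnlg, Cxcr2 and Mmp8 passed the filter through IR injury alone (Sham means of 0.549, 0.0759 and 0.183 FPKM). Their rise is in part built into the filter. Kupffer cell markers fell in 7 of 10 and rose in 1 (190.1 to 236 FPKM against 335 to 344). Sinusoidal endothelial markers fell in 7 of 10 and rose in 2 (52.3 to 102.7 FPKM against 75.8 to 86.3), and stellate cell markers fell in 8 of 9 tested (41.7 to 58.8 FPKM against 134 to 141). Of 6 tested cholangiocyte markers 3 rose and 3 fell (38.5 to 49.4 FPKM against 41.8 to 45.4). Among hepatocyte zones, pericentral markers fell in 6 of 8 tested and rose in 1 (4070.3 to 4196 FPKM against 3989 to 4311). Most of the pericentral sum was Cyp2e1, the marker that rose (means of 3221 FPKM in IR injury and 2865 in Sham). Periportal markers fell in 8 of 10 and rose in 1 (3287 to 3419 FPKM against 4455 to 4708). With median-of-ratios scaling 2 pericentral markers were higher and 4 lower, 2 periportal higher and 6 lower, 1 Kupffer higher and 6 lower, and 2 endothelial higher and 6 lower, while the counts of the other marker lists were the same. In the other marker lists Sox9 and Epcam passed the filter through IR injury alone, and Kdr, Reln, Col1a1 and Tbx3 through Sham alone. In whole liver, fewer cells of a type and less RNA per cell cannot be told apart, and the part of other cells in the changes of the transferases was not tested.

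The pi class of glutathione transferases held the largest rise of any member. Gstp2 (ENSMUSG00000038155, mm10 chromosome 19, 4040285 to 4046023, minus strand, protein coding) had 38.4, 26.7 and 27.5 FPKM in the IR injury libraries, against 2.32, 1.48 and 1.81 FPKM in Sham. Every IR injury value was far above the highest Sham value. The means were 30.9 ± 6.54 and 1.87 ± 0.423 FPKM (SD, n = 3 each), a ratio of 16.5, with a log2 fold change of 3.47 (SE 0.155, limma adjusted p = 6.78e-07). Gstp1, the main pi enzyme of mouse liver and the neighbour of Gstp2, had 320.2, 266 and 282 FPKM in IR injury, against 221, 189 and 210.0 FPKM in Sham. It rose by 0.48 (SE 0.0835, limma adjusted p = 0.00102), a ratio of 1.40. Gstp3, the next gene of the cluster, was at 8.14, 6.89 and 7.23 FPKM in IR injury, below 13.2, 13.1 and 13.7 FPKM in Sham, and fell (-0.77, SE 0.0626). The 3 neighbours moved by different amounts and in both directions.

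Gstp1 and Gstp2 are close paralogs. Of the stretches of 50 bases in the annotated transcripts of Gstp2, 54.3% also occur in transcripts of another gene, most often Gstp1, so that reads may have been divided between the pair and both values are uncertain. Gstp2 amounted to 10.6% ± 1.23 of Gstp1 in IR injury and to 0.897% ± 0.136 in Sham (SD, n = 3 each), a ratio that no scaling between libraries can change. The groups did not overlap (exact two-sided permutation p = 0.1, the smallest that 3 libraries against 3 allow). Their promoters are shown because the paralogs differed in the size of the change and because both hold the same short motif. The 250 bases before the start of each gene, from RefSeq on GRCm38.p6 (minus strand), read 5′ to 3′, with matches of the 4 motifs named after the Ugt2 promoters in capitals (here TGAGTCA, an AP-1 site, in both, and GCGTG in Gstp1).
Gstp2 (chr19:4042222-4042471): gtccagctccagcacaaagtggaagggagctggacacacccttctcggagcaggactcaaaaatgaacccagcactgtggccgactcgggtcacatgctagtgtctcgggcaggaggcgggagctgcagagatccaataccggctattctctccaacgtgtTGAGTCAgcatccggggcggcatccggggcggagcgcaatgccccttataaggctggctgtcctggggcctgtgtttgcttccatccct
Gstp1 (chr19:4037913-4038162): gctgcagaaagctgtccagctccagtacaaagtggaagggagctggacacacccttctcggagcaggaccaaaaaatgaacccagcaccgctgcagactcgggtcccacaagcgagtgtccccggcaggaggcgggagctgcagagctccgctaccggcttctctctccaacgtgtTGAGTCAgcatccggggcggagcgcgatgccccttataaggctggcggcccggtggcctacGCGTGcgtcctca
The RefSeq start used for Gstp2 lies within the gene as annotated in GENCODE M21, and the window of Gstp1 overlaps the first bases of its gene there. Aligned end to end, these windows were identical at 207 of 235 aligned bases (88.1%), against 58.3% for Gstp2 and the unlinked Gsta2.

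All 7 genes of the mu class, a cluster on chromosome 3 whose enzymes conjugate epoxides and other electrophiles, fell, against 53.8% of all tested genes. Gstm3 (ENSMUSG00000004038, mm10 chromosome 3, 107963696 to 107969283, minus strand, protein coding) had 22.3, 15.5 and 16.8 FPKM in IR injury, against 135, 131 and 117 FPKM in Sham. The means were 18.2 ± 3.604 and 128 ± 9.41 FPKM (SD, n = 3 each), 7.01-fold lower, and its log2 fold change of -2.76 (SE 0.126, limma adjusted p = 7.34e-07) was the largest fall of any member. Of its stretches of 50 bases, 28.8% are shared, most often with Gm8834, so its value is uncertain. Gstm4 followed with 5.99, 5.98 and 4.80 FPKM in IR injury and 23.3, 23.8 and 21.7 FPKM in Sham (-1.86, SE 0.0822). Gstm1, the most abundant cytosolic member, was at 465, 407 and 425 FPKM in IR injury, far below the 1023, 923 and 938 FPKM in Sham (-1.15, SE 0.0643). No IR injury value of these 3 genes reached the lowest Sham value, while 80.6% of all tested genes had groups without overlap.

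Gstm7 had 14.0, 13.4 and 13.7 FPKM in IR injury, against 30.2, 26.8 and 27.8 FPKM in Sham (-0.99). Gstm2 had 23.6, 22.7 and 21.8 FPKM in IR injury, against 39.8, 35.5 and 36.0 FPKM in Sham (-0.69). Gstm6 stood at 29.0, 27.0 and 27.4 FPKM in IR injury and 40.4, 37.2 and 38.9 FPKM in Sham (-0.47). The fall thus ranged over the cluster from large in Gstm3 to small in Gstm5 (2.68 ± 0.121 against 3.43 ± 0.243 FPKM, -0.27, limma adjusted p = 0.00376), and with median-of-ratios scaling Gstm5 was not called (-0.04).

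In the alpha class 3 of 4 tested genes fell. Gsta2 (ENSMUSG00000057933, mm10 chromosome 9, 78331018 to 78355788, minus strand, protein coding) had 5.595, 6.003 and 6.32 FPKM in IR injury, against 36.0, 33.9 and 36.0 FPKM in Sham, 5.91-fold lower by the means (-2.38, SE 0.0548, limma adjusted p = 3.78e-08). Gsta4, which conjugates the lipid peroxidation product 4-hydroxynonenal, had 16.3, 14.8 and 13.0 FPKM in IR injury, against 47.1, 42.4 and 44.4 FPKM in Sham (-1.54, SE 0.0814). Gsta3, known in mice for its activity on aflatoxin epoxide, had 88.6, 95.6 and 90.8 FPKM in IR injury, against 223, 206 and 219 FPKM in Sham (-1.23, SE 0.0497). Each of these groups was tight, and none overlapped, against 80.6% of all tested genes without overlap. Gsta1 was at 5.21, 2.87 and 3.12 FPKM in IR injury and 4.22, 2.73 and 3.20 FPKM in Sham and did not pass (0.09, limma adjusted p = 0.680). Gsta1 shares 90.5% of its stretches of 50 bases with other genes and Gsta2 49.8%, so that both values are uncertain.

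The theta class was split. Gstt2 fell to 6.30, 7.18 and 7.29 FPKM in IR injury, against 27.8, 23.8 and 26.8 FPKM in Sham (-1.78, SE 0.0751). Gstt1 fell less, with 63.0, 55.0 and 57.4 FPKM in IR injury and 94.8, 82.4 and 90.02 FPKM in Sham (-0.60, SE 0.0704). Gstt3, next to Gstt1 on chromosome 10, rose, with 16.4, 12.1 and 13.0 FPKM in IR injury and 8.07, 6.70 and 8.64 FPKM in Sham (0.75, SE 0.121, limma adjusted p = 0.000707). Gstt3 stood at 23.6% ± 2.09 of Gstt1 in IR injury and at 8.75% ± 0.763 in Sham (SD, n = 3 each), so their relative order of level stayed as it was in every library. An overlapping gene on the same strand, Gm20441, covers 13.6% of the exon bases of Gstt3, and its reads could not be told apart there.

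Single genes of the other soluble classes all fell. Gstk1, found in mitochondria and peroxisomes, had 34.7, 33.8 and 33.2 FPKM in IR injury, against 72.9, 64.0 and 67.8 FPKM in Sham (-0.99, SE 0.0557). Gsto1, which also reduces dehydroascorbate, had 33.6, 33.6 and 34.3 FPKM in IR injury, against 62.8, 57.5 and 59.3 FPKM in Sham (-0.80, SE 0.0466). Gstz1, the maleylacetoacetate isomerase of tyrosine breakdown, had 65.0, 62.4 and 61.4 FPKM in IR injury, against 112, 105 and 110.0 FPKM in Sham (-0.78, SE 0.0451). These 3 genes changed by similar amounts, and their limma adjusted p was at most 2.32e-06.

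Among the microsomal enzymes, which are membrane proteins of another fold, Mgst1 was by far the most abundant. It stood at 936, 879 and 893 FPKM in IR injury and 1074, 980.2 and 1128 FPKM in Sham. Its fall (-0.23, SE 0.0595, limma adjusted p = 0.00810) was as large as the median change of all genes and ended under median-of-ratios scaling (0.07). Mgst3 fell to 3.94, 3.47 and 3.42 FPKM in IR injury, against 12.6, 10.5 and 11.4 FPKM in Sham (-1.44, SE 0.0765). Gstm1 amounted to 47.9% ± 1.73 of Mgst1 in IR injury, against 90.8% ± 6.69 in Sham (SD, n = 3 each).

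Taken as summed FPKM, the Gst and Mgst genes amounted to 2205, 1999.5 and 2047 FPKM in IR injury and to 3306, 3000.0 and 3214 FPKM in Sham, a ratio of 0.657 (0.811 under median-of-ratios scaling). The mu class made up 25.1% ± 0.419 of that sum in IR injury and 38.4% ± 1.41 in Sham. For the alpha class the shares were 5.59% ± 0.363 and 9.44% ± 0.0703. The pi class made up 15.7% ± 0.838 in IR injury and 6.98% ± 0.189 in Sham, and the microsomal class 43.5% ± 0.773 and 33.8% ± 1.46 (SD, n = 3 each). In these 4 shares the groups did not overlap (exact two-sided permutation p = 0.1 each, the smallest possible, and 0.114 after adjustment over the 25 sums, shares and ratios compared). The theta class kept a like share, 3.803% ± 0.0801 in IR injury and 3.87% ± 0.0962 in Sham (exact permutation p = 0.4).

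**Figure D2:**
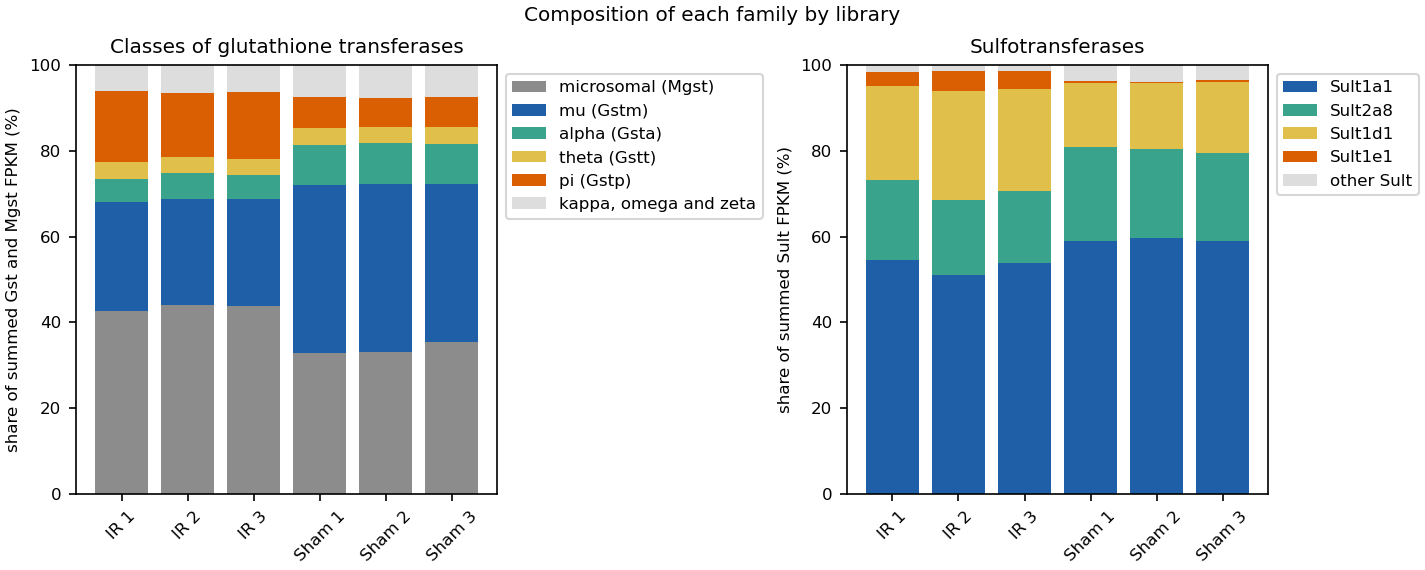
Share of the summed FPKM of a family, in percent, taken by each class of glutathione transferases (left) and by single sulfotransferases (right) in each library, IR injury left of Sham. The mu band is narrower and the pi and microsomal bands are wider in IR injury than in Sham, and the Sult1e1 band, at 4.08% of the sum in IR injury, is hardly visible in Sham at 0.386%.

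Of the 8 tested sulfotransferases 2 were higher, 4 lower and 2 did not pass, shares close to the 24.3% and 53.8% of all tested genes. Under median-of-ratios scaling 4 were higher and 3 lower. Sult1e1, the estrogen sulfotransferase (ENSMUSG00000029272, mm10 chromosome 5, 87575969 to 87591594, minus strand, protein coding), had 18.8, 27.0 and 25.5 FPKM in IR injury, against 2.15, 1.92 and 1.97 FPKM in Sham. The means were 23.8 ± 4.36 and 2.01 ± 0.121 FPKM (SD, n = 3 each), a ratio of 11.8, with a log2 fold change of 3.03 (SE 0.124, limma adjusted p = 4.50e-07). None of its stretches of 50 bases is shared with another annotated transcript. Sult1d1, which acts on catecholamines and other phenols, lies beside it and had 126, 149 and 140.0 FPKM in IR injury, above the 76.9, 77.6 and 90.1 FPKM in Sham (0.75, SE 0.0831). Sult1b1, the third gene of this cluster and a sulfotransferase of thyroid hormones, fell, with 5.78, 5.11 and 4.83 FPKM in IR injury and 8.48, 8.03 and 8.08 FPKM in Sham (-0.56, SE 0.0650). Sult1e1 was thus at 461% ± 117 of Sult1b1 in IR injury and at 24.5% ± 0.745 in Sham (SD, n = 3 each), so that the order of these neighbours was the opposite in every IR injury library of that in every Sham library.

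Sult1a1, the phenol sulfotransferase and most abundant gene of the family, was at 312, 299 and 317 FPKM in IR injury and 304, 302 and 321 FPKM in Sham. It did not pass (0.00, SE 0.0447, limma adjusted p = 0.966), but relative to the median of all genes it stood 0.24 higher, and under median-of-ratios scaling it was higher (0.30). Sult2a8, a bile acid sulfotransferase of mouse liver, had 106, 104 and 98.3 FPKM in IR injury and 112, 106 and 113 FPKM in Sham. It did not pass either (-0.10, limma adjusted p = 0.0853), and its sign turned under median-of-ratios scaling, where it was higher (0.20).

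Sult2a2, of the hydroxysteroid sulfotransferases that act on dehydroepiandrosterone, was listed at 0, 0 and 0.0499 FPKM in IR injury, against 3.32, 4.78 and 3.90 FPKM in Sham. These values stand for 0, 0 and 2 rebuilt reads in IR injury and for 164, 254 and 155 in Sham. The difference was -2.29 on the log2(FPKM + 1) scale (SE 0.104, limma adjusted p = 7.17e-07), which understates so low a gene, and -7.69 with limma voom on rebuilt reads. It shares 62.1% of its stretches of 50 bases with other genes, most often Sult2a1. Sult1c2 had 0.632, 0.731 and 0.381 FPKM in IR injury, against 3.66, 2.98 and 3.69 FPKM in Sham (-1.49, SE 0.103, and -2.57 with limma voom on rebuilt reads). Sult5a1 was the last of the 4 that fell (1.84 ± 0.109 against 2.51 ± 0.437 FPKM, -0.30, limma adjusted p = 0.0171). It was not called with median-of-ratios scaling (-0.09), with quantile normalization (-0.0685) or without the second IR injury library (-0.28). The summed FPKM of all 16 Sult genes was 571, 587 and 588 in IR injury and 515, 507 and 545 in Sham, a ratio of 1.11 (1.37 under median-of-ratios scaling). Sult1d1 took 23.7% ± 1.66 of it in IR injury and 15.6% ± 0.823 in Sham, and Sult1a1 took 53.2% ± 1.93 and 59.2% ± 0.403 (SD, n = 3 each).

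All 15 tested glucuronosyltransferases passed the threshold, as did 78.1% of all tested genes. Of the 15, 13 were lower and 2 higher, against 53.8% and 24.3% of all tested genes. Under median-of-ratios scaling 8 were lower, 2 higher and 5 did not pass, against 38.1% lower and 38.2% higher of all tested genes. The 8 Ugt2 genes lie in a cluster on chromosome 5, and the 6 that fell did so by nearly the same amount, with log2 fold changes of -0.69 to -0.48. Ugt2b5, the most abundant, had 237, 249 and 232 FPKM in IR injury, against 353, 342 and 348 FPKM in Sham (-0.54, SE 0.0430, limma adjusted p = 1.34e-05). Ugt2b36 had 171, 180.2 and 172 FPKM in IR injury, against 280.4, 273 and 289 FPKM in Sham (-0.68). Ugt2b1 had 133, 121 and 110.3 FPKM in IR injury, against 186, 199.6 and 201 FPKM in Sham (-0.69). All 3 kept about the same order of level in both groups.

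Ugt2a3 had 73.6, 74.6 and 70.4 FPKM in IR injury, against 99.0, 104 and 103 FPKM in Sham (-0.48). Ugt2b34 had 62.0, 68.1 and 62.1 FPKM in IR injury, against 100.2, 104 and 105 FPKM in Sham (-0.68). Ugt2b35 had 28.3, 32.1 and 30.9 FPKM in IR injury, against 47.7, 48.2 and 49.9 FPKM in Sham (-0.66). In each of the 6 genes the highest IR injury library lay below the lowest Sham library. Groups without overlap in either direction were seen in 80.6% of all tested genes.

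The other two Ugt2 genes, both low in Sham, rose. Ugt2b37 (ENSMUSG00000057425, mm10 chromosome 5, 87240493 to 87254804, minus strand, protein coding) had 15.99, 20.03 and 17.5 FPKM in IR injury, against 2.66, 2.95 and 2.98 FPKM in Sham, a ratio of 6.23 (log2 fold change 2.28, SE 0.0826, limma adjusted p = 2.58e-07). Ugt2b38 had 14.3, 17.6 and 14.8 FPKM in IR injury, against 3.75, 3.98 and 7.22 FPKM in Sham, a ratio of 3.12 (1.51, SE 0.202, limma adjusted p = 0.000242). The third Sham library stood apart for Ugt2b38, and without it the log2 fold change was 1.76. Ugt2b38 shares 37.4% and Ugt2b37 18.3% of their stretches of 50 bases, most often with Ugt2b5, which shares 41.7%, so that these values are uncertain. Ugt2b5 moved the other way, and Ugt2b37 amounted to 7.45% ± 0.658 of Ugt2b5 in IR injury and to 0.825% ± 0.0610 in Sham (SD, n = 3 each).

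The promoters of the 3 paralogs are shown because 2 of the genes rose and the third fell. They are given as above (RefSeq, GRCm38.p6, minus strand, 250 bases before the start, 5′ to 3′). Capitals mark TGANTCA, the pattern searched for AP-1 sites, in Ugt2b37 and Ugt2b38, and the C/EBP-type site TTGCNNAA, on its other strand, in Ugt2b5. The match reads TGACTCA in Ugt2b37 and TGAATCA in Ugt2b38. An AP-1 site reads TGACTCA or TGAGTCA, so the match in Ugt2b38 is not one.
Ugt2b37 (chr5:87254789-87255038): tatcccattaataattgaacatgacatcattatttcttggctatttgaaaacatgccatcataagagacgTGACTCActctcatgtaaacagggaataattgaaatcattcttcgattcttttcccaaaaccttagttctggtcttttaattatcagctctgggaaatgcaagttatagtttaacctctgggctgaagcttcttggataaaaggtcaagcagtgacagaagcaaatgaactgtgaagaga
Ugt2b38 (chr5:87424204-87424453): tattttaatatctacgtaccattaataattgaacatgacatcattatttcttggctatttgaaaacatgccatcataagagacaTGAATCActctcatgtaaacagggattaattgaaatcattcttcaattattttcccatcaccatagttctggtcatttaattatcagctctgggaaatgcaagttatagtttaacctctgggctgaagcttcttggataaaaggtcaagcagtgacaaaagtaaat
Ugt2b5 (chr5:87140341-87140590): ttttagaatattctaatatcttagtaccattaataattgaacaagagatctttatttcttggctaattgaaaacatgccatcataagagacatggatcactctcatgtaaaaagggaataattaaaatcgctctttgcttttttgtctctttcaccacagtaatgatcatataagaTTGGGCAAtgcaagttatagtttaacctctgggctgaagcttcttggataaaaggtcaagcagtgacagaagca
The last bases of the Ugt2b37 window lie within the gene as annotated in GENCODE M21. The windows of Ugt2b37 and Ugt2b38 were identical to that of Ugt2b5 at 88.1% and 88.3% of aligned bases, and no match of TGANTCA lay in the window of Ugt2b5. Promoters of 53 of the 62 members were in the RefSeq table, 7 of them of genes that rose and 30 of genes that fell. TGANTCA on either strand was found in 4 of the 7 (Gstp1, Gstp2, Ugt2b37 and Ugt2b38, which form 2 groups of paralogs with shared sequence), in 4 of the 30, in 10 of the 53 and in 6.75% of all 32851 promoters. These counts allow any middle base, such as that of TGAATCA in Ugt2b38, and are not counts of AP-1 sites alone. The core TGACNNNGC of the antioxidant response element was in 0 of the 7, in 4 of the 30 (Gsta3, Gstm5, Gstm7 and Mgst1) and in 10.2% of all promoters. In Gstp1 and Gstp2 the capitals and the next bases read TGAGTCAgc, which differs from this core only by G in place of C. Forms with that G were not searched. GCGTG, the core to which the aryl hydrocarbon receptor binds, was in 2 of the 7, 7 of the 30 and 28.2% of all promoters, and TTGCNNAA in 0 of the 7, 7 of the 30 and 9.56%. A member was counted where any of its promoters matched, while the shares of all are per promoter. The counts and the shares are thus in unlike units, and members with several promoters had more chances of a match. The 4 motifs were searched on both strands with overlaps allowed, and a match is only a description of these letters.

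**Figure D3:**
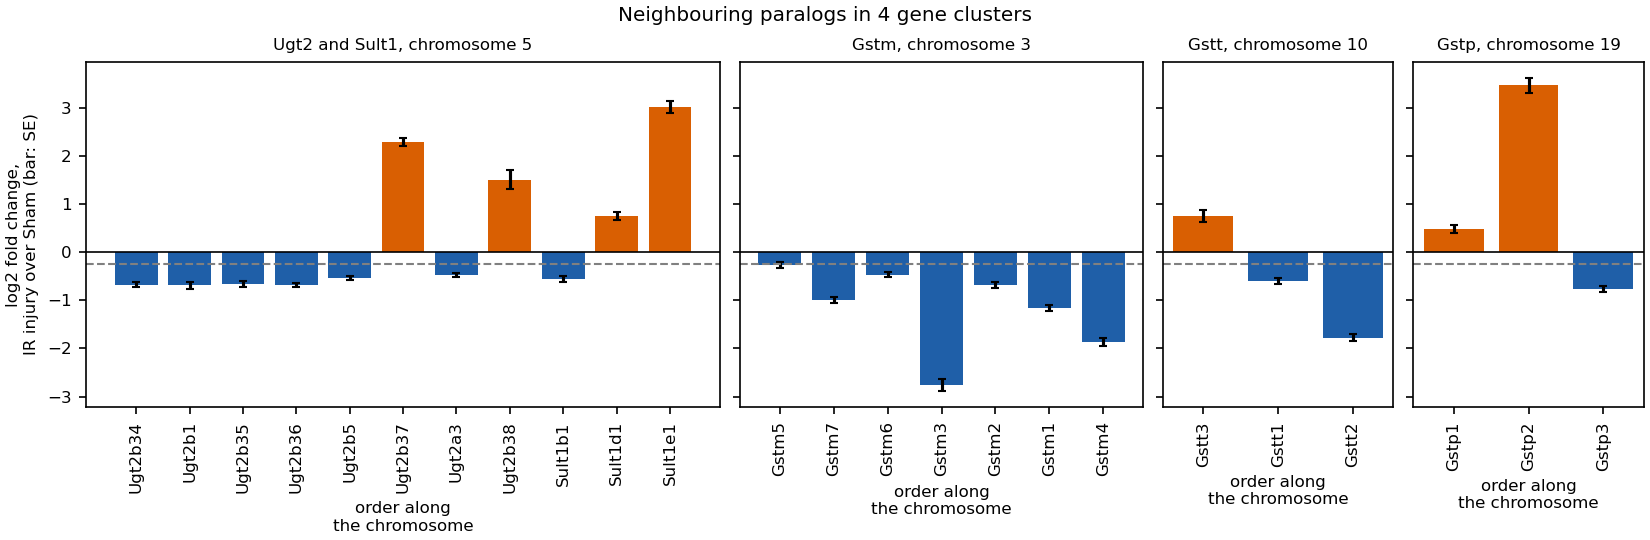
Log2 fold change of IR injury over Sham (bars, with the SE of limma) for tested members in the order of their position in 4 gene clusters, in orange where higher, in blue where lower, with the median of all genes dashed. Ugt2b37, Ugt2b38, Sult1d1, Sult1e1, Gstt3, Gstp1 and Gstp2 stand above 0, and the other tested members of these clusters lie below 0.

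The Ugt1 genes are built from separate first exons joined to shared later exons, so that reads in the shared part cannot be told apart and all their values are uncertain. Ugt1a2 and Ugt1a8, with 59.3% and 59.2% of exon bases shared, had at most 8 and 4 rebuilt reads in a library. Few reads of the shared exons were thus counted in them. FPKM divides by the full exon length, so the levels of the Ugt1 genes may be understated. All 5 tested Ugt1 genes fell, against 53.8% of all tested genes. Ugt1a1, which glucuronidates bilirubin, had 22.9, 24.0 and 20.7 FPKM in IR injury, against 29.8, 36.5 and 32.8 FPKM in Sham (-0.53, SE 0.0840, limma adjusted p = 0.000623). Ugt1a9 had 24.9, 24.3 and 22.1 FPKM in IR injury, against 29.9, 36.8 and 31.6 FPKM in Sham (-0.44). Ugt1a6b, of the phenol-conjugating pair, had 8.63, 8.66 and 8.63 FPKM in IR injury, against 10.8, 12.4 and 10.9 FPKM in Sham (-0.36). With median-of-ratios scaling these 3 were not called.

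Ugt1a6a, the other gene of that pair, fell far more, with 0.206, 0.232 and 0.103 FPKM in IR injury and 4.05, 3.804 and 4.06 FPKM in Sham. Its mean was 22.0-fold lower, from 51, 69 and 24 rebuilt reads in IR injury against 1166, 1177 and 938 in Sham, and the log2(FPKM + 1) difference was -2.08 (SE 0.0632, limma adjusted p = 1.17e-07; -4.49 with limma voom on rebuilt reads). Ugt1a5 fell as well, with 5.32, 5.35 and 5.02 FPKM in IR injury, against 7.32, 10.4 and 8.74 FPKM in Sham (-0.64). Ugt3a2, of a subfamily that uses other sugars than glucuronic acid, had 70.1, 70.9 and 68.8 FPKM in IR injury, against 82.4, 89.5 and 83.9 FPKM in Sham (-0.28). Its neighbour Ugt3a1 had 7.95, 8.94 and 8.52 FPKM in IR injury and 10.05, 11.98 and 9.26 FPKM in Sham (-0.26, limma adjusted p = 0.0274), and was not called without IR injury library 1 or 3 (-0.22 and -0.27) or Sham library 2 (-0.17). The falls of both Ugt3 genes were close to the median of all genes. The summed FPKM of all 20 Ugt genes was 876, 906 and 843 in IR injury and 1247, 1280 and 1287 in Sham, a ratio of 0.688 (0.849 under median-of-ratios scaling).

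**Figure D4:**
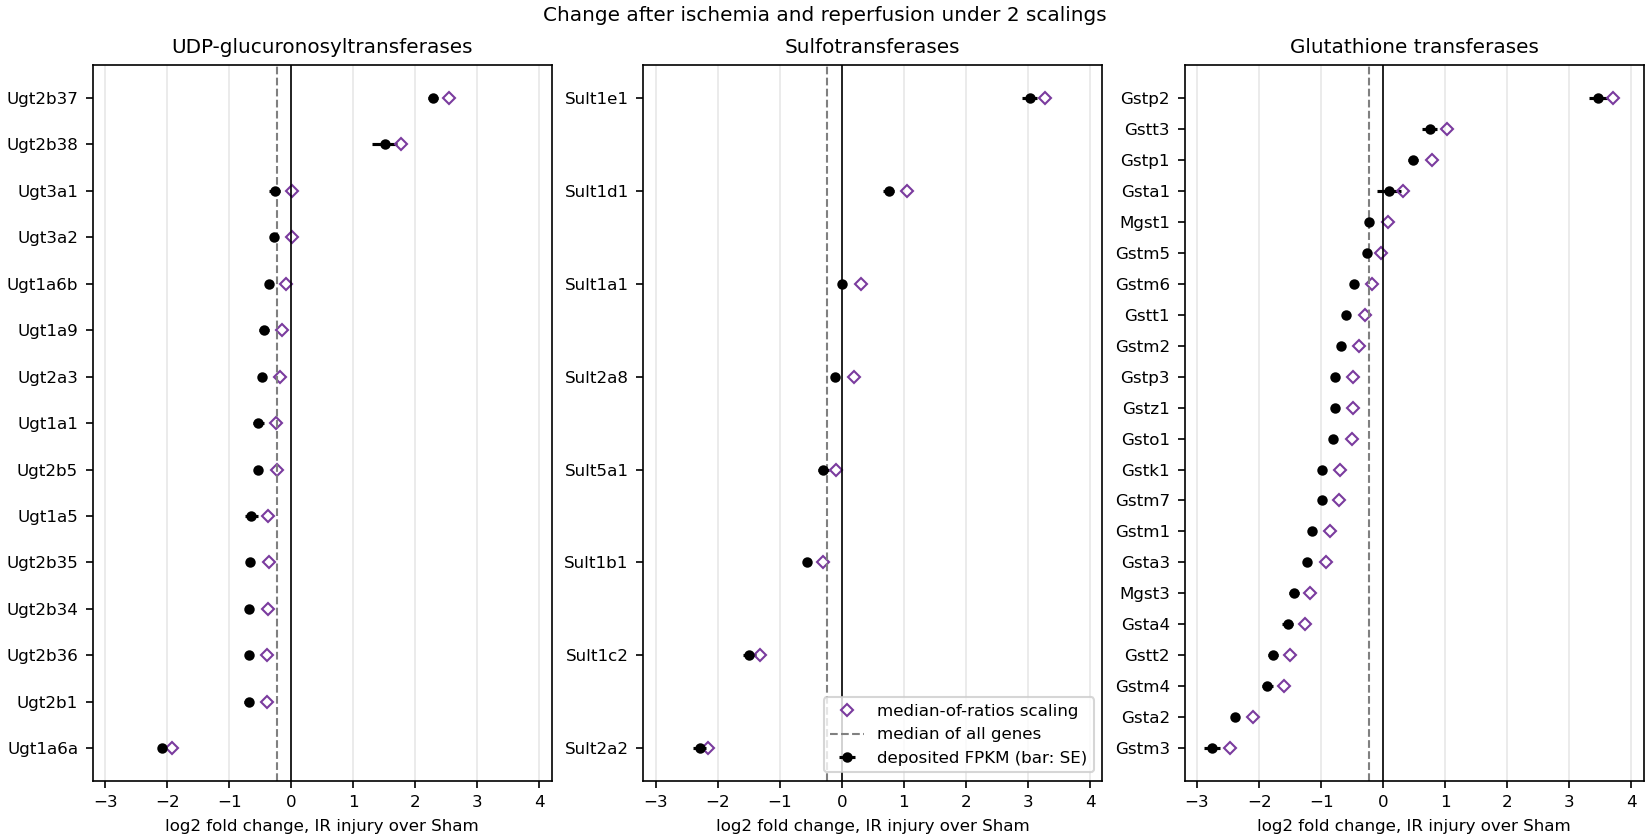
Log2 fold change of IR injury over Sham for the 45 tested members, by family, with the deposited FPKM as filled points (bars are the SE of limma) and median-of-ratios scaling as open diamonds, and the median of all genes dashed. The other scaling shifts the members to the right by a like amount, and Mgst1, Ugt3a1, Ugt3a2 and Sult2a8 move across 0.

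The remaining 17 members were under the filter and had no test. Their highest group mean was 0.601 FPKM, that of Sult2a7 in Sham (0.464 FPKM in IR injury). Sult3a1 had 0, 0 and 0.0320 FPKM in IR injury, against 0.169, 0.362 and 0.258 FPKM in Sham, or 0, 0 and 2 reads against 13, 30 and 16. Sult2a1, Sult2a5 and Ugt1a2 were listed at 0 in all IR injury libraries, with at most 9 reads in a Sham library. Ugt8a, the galactosyltransferase of myelin lipids, Mgst2, Gsto2, Gsta5, Gstt4, Sult2b1, Sult4a1, Sult6b1, Sult6b2, Ugt1a7c, Ugt1a8 and Ugt1a10 were each at most 0.204 FPKM on average in a group.

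The genes around these reactions were counted in lists, whose counts and medians are set beside the 24.3% higher, 53.8% lower and median of -0.23 of all tested genes. Of 6 tested genes that make, carry or recycle the sulfate donor PAPS, 5 fell and 1 rose (median -0.63; 4 lower and 1 higher under median-of-ratios scaling). The sulfate carrier Slc26a1 fell to 10.7 ± 1.05 FPKM in IR injury, against 54.1 ± 1.67 in Sham (-2.24), and Papss2, the PAPS synthase, to 15.4 ± 1.45 FPKM, against 59.6 ± 0.869 (-1.89; SD, n = 3 each). Of 7 genes around UDP-glucuronic acid and its precursor UDP-glucose, 3 rose and 4 fell (median -0.19), and under median-of-ratios scaling 3 were higher and 3 lower, with a median of 0.09. Ugp2, which makes UDP-glucose, fell to 82.0 ± 3.67 FPKM, against 115 ± 1.92 in Sham (-0.49). Pgm1 fell to 39.1 ± 1.16 FPKM, against 66.8 ± 1.04 in Sham (-0.76). Pgm2, less abundant than Pgm1, rose to 8.22 ± 0.858 FPKM, against 2.28 ± 0.119 in Sham (1.49), the largest change of the list. Ugdh, which makes UDP-glucuronic acid itself and was chosen for naming after its values were seen, rose to 34.5 ± 1.63 FPKM, against 23.9 ± 0.422 in Sham (0.51). Of 11 tested genes of glutathione synthesis and recycling, 5 rose and 6 fell (median -0.20), and under median-of-ratios scaling 5 were higher and 3 lower, with a median of 0.09. Gclc, the catalytic subunit of the limiting enzyme of glutathione synthesis, was at 270.1 ± 1.90 FPKM in IR injury and 57.9 ± 1.88 in Sham (2.20), while Cth, which releases cysteine from cystathionine, fell (-0.95). Gclm, the modifier subunit of the same enzyme, and Gss, the next enzyme of synthesis, fell slightly (-0.27 and -0.35). Under median-of-ratios scaling neither was called (0.02 and -0.07).

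Of 10 tested genes that hydrolyse conjugates or process glutathione conjugates to mercapturates, 9 fell and 1 rose (median -0.73; 8 and 1 under median-of-ratios scaling). The aminoacylases Acy3 (-1.42) and Acy1 (-1.17) were among those that fell. Among 9 tested transporters of conjugates and bile acids 8 fell and 1 rose (median -0.69; 6 and 1 under median-of-ratios scaling), with the organic anion transporter Slco1a4 at 9.001 ± 0.348 FPKM in IR injury and 41.1 ± 0.953 in Sham (-2.07) and Abcc6 at -1.20. Of 15 tested enzymes of other conjugation and detoxification reactions, 13 fell and 2 rose (median -0.91), with the same counts under median-of-ratios scaling. Inmt (-1.64), Nat2 (-1.63) and Bhmt (-1.63) fell, and Nnmt, the nicotinamide methyltransferase, rose to 284 ± 23.2 FPKM in IR injury, against 88.5 ± 5.50 in Sham (1.67; SD, n = 3 each).

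Of 20 genes of regulators known to act on phase II genes, 7 rose, 11 fell and 2 did not pass (median -0.27). The small Maf proteins pair with the antioxidant-response factor NRF2 and with its competitor BACH1. Maff rose to 55.4 ± 4.68 FPKM in IR injury, against 2.92 ± 0.177 in Sham (3.85), Mafk by 2.06 and Bach1 by 1.97. Mafg, another small Maf gene, did not pass (0.06), and neither did Nfe2l2, which encodes NRF2 (-0.08). Under median-of-ratios scaling Mafg and Nfe2l2 were called higher (0.35 and 0.21). Nr1i3, the constitutive androstane receptor that induces drug-metabolising genes, fell to 2.09 ± 0.270 FPKM in IR injury, against 11.9 ± 0.335 in Sham (-2.07; SD, n = 3 each). Under median-of-ratios scaling 9 of the 20 were higher and 9 lower. The limma adjusted p of the genes of these lists named up to here was at most 3.68e-05, apart from Gclm (0.00828), Gss (0.000213), Mafg (0.335) and Nfe2l2 (0.198). List genes that changed sign under median-of-ratios scaling are named further below. Their limma adjusted p under the deposited scaling was 0.00358 (Bpnt1) to 0.198 (Nfe2l2).

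**Figure D5:**
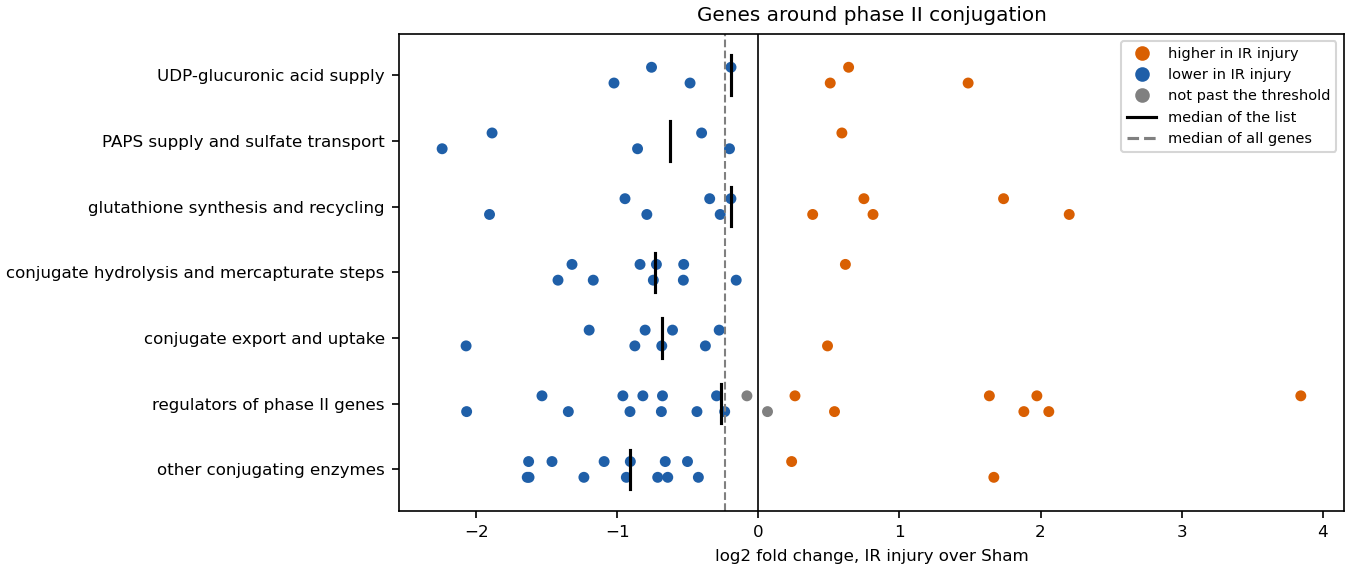
Log2 fold change of IR injury over Sham for the tested genes of 7 lists around phase II conjugation, 1 point per gene (orange higher, blue lower, grey not past the threshold), with the median of each list as a black bar and that of all genes dashed. The lists of PAPS supply, conjugate hydrolysis, transport and other conjugating enzymes lie mostly to the left, and Maff is the point farthest to the right.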

How the data were processed

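The authors deposited 1 table of FPKM values per gene and library, and the submitters' processing notes name genome build mm10. Per the labels' protocols, a SMARTER mRNA-Seq kit turned total RNA into libraries. For the aligner, counter, annotation, strand handling and scaling total, the entry is: not given in the sources used here. Positions and exon lengths came from GENCODE M21 (mm10), which held 28977 of 29543 gene IDs and all 62 members. FPKM multiplied by exon length and by a library total gave whole reads, within 0.05, for 98.3% of 27072 genes above 0, and for all 62 members. At the rebuilt totals 3 reads are 4.18e-06% to 5.59e-06% of a library, a floor that covers counting error alone.

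Libraries were grouped by their titles. The main test, on log2(FPKM + 1), was a two-sided moderated linear model of limma 3.58.1 under R 4.3.3 with a mean-variance trend, with a filter at a mean of 1 FPKM and Benjamini-Hochberg adjustment over 10316 genes. Fold changes on that scale understate the change of low genes. The fit was checked on simulated reads. Shares and ratios of FPKM were compared by exact permutation with scipy 1.17.1. Shared sequence was the percent of a gene's 50-base stretches found in M21 transcripts of other genes, and promoters were aligned with Biopython 1.88. Tables and figures used Python 3.11.15, pandas 2.3.3, numpy 2.4.6 and matplotlib 3.10.9.

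Values by library are given for members with a mean of at least 10 FPKM in either group or a called change of at least 1. They are also given for Gsta1, Sult1b1, Ugt1a5 and Sult3a1, which do not meet this rule. List genes are named among the 4 largest called changes and 2 most abundant of a list. Ugdh, Gclm, Gss, Mafg, list genes that changed sign and some marker genes are named besides these. Members, lists and motifs were chosen with earlier results of these data known. No column was left unused. The alternatives were a pseudocount of 0.1, no filter or a mean of 5 FPKM, median-of-ratios scaling, quantile normalization, rescaling to TPM, robust limma, limma voom on rebuilt reads, a replicate block, and each library left out in turn.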

Additional observations from a re-analysis of the deposited data

How the results depend on the processing

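Of the 45 tested members, 34 kept their direction and their side of the threshold under all 15 alternatives that could be computed for them, among them the 7 that rose. Under median-of-ratios scaling 8 Ugt genes were lower in place of 13 and 4 Sult genes higher in place of 2, and 3939 genes of all were higher in place of 2505. There Mgst1 (0.0712), Sult2a8 (0.20), Ugt3a1 (0.00775), and Ugt3a2 (0.0161) changed sign, as did 8 of the 78 tested genes of the pathway lists: Slc35d1 (0.0862), Bpnt1 (0.0818), Gclm (0.0193), Oplah (0.0939), Gusb (0.11), Keap1 (0.0278), Cebpa (0.00238) and Nfe2l2 (0.21), of which Nfe2l2 was then called higher and the others not called. Nfe2l2 was at 0.000741 with quantile normalization. With the filter raised to a mean of 5 FPKM, 1 Sult gene was lower in place of 4, and 1359 of all genes were higher and 2573 lower, since fewer genes were tested; with no filter 8843 were lower in place of 5548. Sult1a1, which was higher under median-of-ratios scaling (0.30), was at -0.0271 with quantile normalization and at -0.0282 after rescaling to TPM. With quantile normalization Gstm5 (-0.0629), Sult5a1 (-0.0685) and Ugt3a1 (-0.14) were not called, with no filter Ugt3a1 was not called (limma adjusted p = 0.0653), and after rescaling to TPM Sult2a8 was lower (-0.13, limma adjusted p = 0.0233). Leaving out 1 library gave 7 members higher each time and 34 to 35 lower, with -0.12 to 0.23 for Gsta1 and -0.0149 to 0.0299 for Sult1a1. Sult5a1 lost its call without the second IR injury library, Ugt3a1 without IR injury library 1 or 3 or Sham library 2, and Sult2a8 was lower without the second Sham library (-0.13); in the other members no call changed.

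No pairing of the libraries by replicate number was seen. Same-numbered libraries of IR injury and Sham deviated from their group means with correlations of -0.0389, 0.0117 and -0.104 across genes. For differently numbered libraries the correlations were -0.0546 to 0.0993. With 3 libraries per group this cannot decide whether the numbers stand for a pairing. With the replicate block 7 members were higher and 35 lower, as without it, and no member's call changed. Counting limits the members under 1 FPKM, and shared sequence limits the paralogs named above.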

Other observations

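Gstm2-ps1, a pseudogene of the mu cluster that was left out of the members by its description, had a level that ran alongside the genes of that cluster. It stood at 7.42, 6.07 and 6.84 FPKM in IR injury, against 17.5, 12.9 and 17.0 FPKM in Sham, and fell (-1.10, SE 0.118, limma adjusted p = 6.94e-05). Gstm1 shares 18.9% of its stretches of 50 bases with other genes, most often with this pseudogene, so that reads of Gstm1 may have been counted in it.

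Gstp1 and Gstm1, the most abundant pi and mu genes, came closer in level. Gstp1 amounted to 66.9% ± 1.70 of Gstm1 in IR injury and to 21.5% ± 0.968 in Sham (SD, n = 3 each), and the groups did not overlap (exact two-sided permutation p = 0.1, the smallest possible). Within the Ugt family the share of the Ugt1 genes in the summed FPKM was 6.93% ± 0.183 in IR injury and 7.09% ± 0.650 in Sham (exact permutation p = 0.9), and that of the Ugt2 genes 84.1% ± 0.137 and 85.4% ± 0.985 (exact permutation p = 0.2). The Ugt1 share may be understated, since reads of the shared exons may not have been counted.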
